A study of Mus musculus with 3 samples.

Results

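The mitochondrial carrier family, encoded by the Slc25 and Ucp genes, was examined together with its outer membrane homologues Mtch1 and Mtch2. Also included were the voltage-dependent anion channels Vdac1, Vdac2 and Vdac3 and the pyruvate carrier gene Mpc1, which work beside the family in mitochondrial transport. Members were found by gene symbol: 112 of 45101 probe sets carried a single member symbol, for 52 of 18193 named genes. Ucp2, Mpc2, Slc25a21 and Slc25a43 had no probe set under their symbol in the annotation used and were not analysed here, so the uncoupling proteins are described without Ucp2.

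The samples were 3 replicates of total RNA from undifferentiated F9 cells, a mouse embryonal carcinoma line, grown without any stated treatment in DMEM with 10% fetal calf serum on dishes treated with 0.2% gelatin and taken at about 80% confluence. Each was hybridised to 1 Affymetrix Mouse Genome 430 2.0 array. The 3 arrays form a single group of 1 cell line, with no differentiated or other reference sample, so each gene was compared with background and no comparison of conditions was possible. The labels do not say whether the replicates came from separate cultures, so part or all of the variation among the samples may be technical. The p-values reflect nothing beyond these 3 samples. Both they and the SEs use limma's eBayes variance, which combines a gene's own spread between arrays with that of all probe sets. The SE of a gene with little spread can thus be larger than its own values would give.

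Most carriers of this family sit in the inner mitochondrial membrane and exchange nucleotides, phosphate, cofactors, carboxylates and amino acids between the matrix and the cytosol. The ADP/ATP carriers bring ADP in and send ATP out. Slc25a4 is the form known best from heart and skeletal muscle, Slc25a5 the form known from proliferating cells, and Slc25a31 a form known from male germ cells. The uncoupling protein Ucp1 lets protons back across the same membrane and is known for heat production in brown fat. The VDAC channels form the matching pores of the outer membrane.

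Signals are linear intensities in arbitrary units. The background threshold of an array was the 95th percentile of the signals of 127 probe sets for 114 olfactory, vomeronasal and taste receptor and hair keratin-associated protein genes, and lay at 44.6, 46.1 and 43.2 on replicates 1, 2 and 3. A gene is called above background when the adjusted p from limma's one-sided test of log2 signal over threshold was under 0.05; a gene not above background may still be expressed. Because probes differ in affinity, values of different genes are set side by side and not ranked as transcript levels. Pou5f1, which encodes Oct4, had a signal of 6809 ± 279 (SD, n = 3), and 7 of 7 markers of undifferentiated F9 cells passed. Of 7 endoderm markers 0 passed limma's test, with 2 at an unadjusted p under 0.05, and 2 passed at the 90th percentile.

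Most members were above background. By limma's test 38 of the 52 genes (73.1%) passed, against 51.1% of all named genes outside the background families, and their median lay 2.71 log2 units over the threshold, against 0.72 for all named genes. Without a test, 40 of the 52 exceeded the threshold on all 3 arrays, where 53.8% of all named genes did. A gene was represented by its probe set with the highest mean signal, so genes with more probe sets had more chances to pass. Counted by probe set, 68 of 112 (60.7%) passed, against 45.2% of the 34818 probe sets with a single symbol outside the background families. Nucleotide and cofactor carriers accounted for 12 of 15, uncoupling proteins and relatives for 2 of 5 and the remaining members for 24 of 32. Of the 15, ADP/ATP carriers passed in 2 of 3, ATP-Mg/phosphate carriers in 2 of 4 and the others in 8 of 8. The role groups below are small, and their counts are to be read beside the 51.1% of all named genes called.

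The ADP/ATP carrier genes were split, with Slc25a5 and Slc25a4 far above background and Slc25a31 not. The best Slc25a5 probe set gave 10351, 10217 and 9254 on replicates 1, 2 and 3, or 7.80 ± 0.11 (SE) log2 units over the threshold (limma adjusted p = 0.000109). That of Slc25a4 gave 6111, 6281 and 6269, or 7.12 ± 0.11 (SE) log2 units (limma adjusted p = 0.000109), with an SD of log2 signal between arrays of 0.022, the lowest of any member called. The single Slc25a31 probe set gave 29.7, 33.2 and 24.3, below the threshold on every array, at -0.63 ± 0.13 (SE) log2 units. All 3 arrays thus lay on the same side of the threshold for each of the paralogues, above it for Slc25a4 and Slc25a5 and below it for Slc25a31. Among markers of spermatocytes and spermatids, which are among the cells in which Slc25a31 is known, 0 of 8 passed limma's test, with 1 at an unadjusted p under 0.05.

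The start regions of these 3 paralogues are shown because their calls differ. Each line gives the 250 bases before the annotated start from RefSeq (GRCm38.p6), 5′ to 3′ on the strand of the gene, with CpG dinucleotides in capitals. Slc25a4 lies at chr8:46211063-46211312 on the minus strand, Slc25a5 at chrX:36795347-36795596 on the plus strand and Slc25a31 at chr3:40708621-40708870 on the plus strand.
Slc25a4: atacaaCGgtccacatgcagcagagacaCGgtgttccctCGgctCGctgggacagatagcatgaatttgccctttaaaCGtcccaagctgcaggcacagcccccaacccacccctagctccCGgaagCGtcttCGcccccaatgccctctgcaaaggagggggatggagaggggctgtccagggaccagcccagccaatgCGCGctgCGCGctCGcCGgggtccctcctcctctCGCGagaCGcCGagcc
Slc25a5: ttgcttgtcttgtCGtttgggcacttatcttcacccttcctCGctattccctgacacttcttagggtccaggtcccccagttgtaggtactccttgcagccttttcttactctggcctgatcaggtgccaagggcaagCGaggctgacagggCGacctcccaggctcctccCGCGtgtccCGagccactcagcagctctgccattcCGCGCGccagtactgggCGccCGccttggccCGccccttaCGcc
Slc25a31: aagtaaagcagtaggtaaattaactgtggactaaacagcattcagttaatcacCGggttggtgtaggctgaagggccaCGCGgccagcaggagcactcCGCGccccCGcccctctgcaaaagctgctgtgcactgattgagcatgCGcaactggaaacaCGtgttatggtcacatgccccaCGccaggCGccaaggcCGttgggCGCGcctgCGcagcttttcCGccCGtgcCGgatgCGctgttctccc

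The windows held 18 CpG dinucleotides in Slc25a4, 14 in Slc25a5 and 18 in Slc25a31, where the median over 32851 RefSeq windows was 6 and the 75th percentile 16. The gene that was not above background therefore had as many as Slc25a4. The letters GCGCANGCGC, the core bound by the factor Nrf1, were found on either strand in the Slc25a31 window and not in the other two, and in 3.74% of all windows. The letters TATAAA were found in none of the 3 and in 12.4% of all windows. A match is a description of the letters and not of binding. Only 40 of the 52 members (76.9%) had a window in the table, fewer than the 80% needed, so a comparison of windows over all members would be void and was not made.

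**Figure D1:**
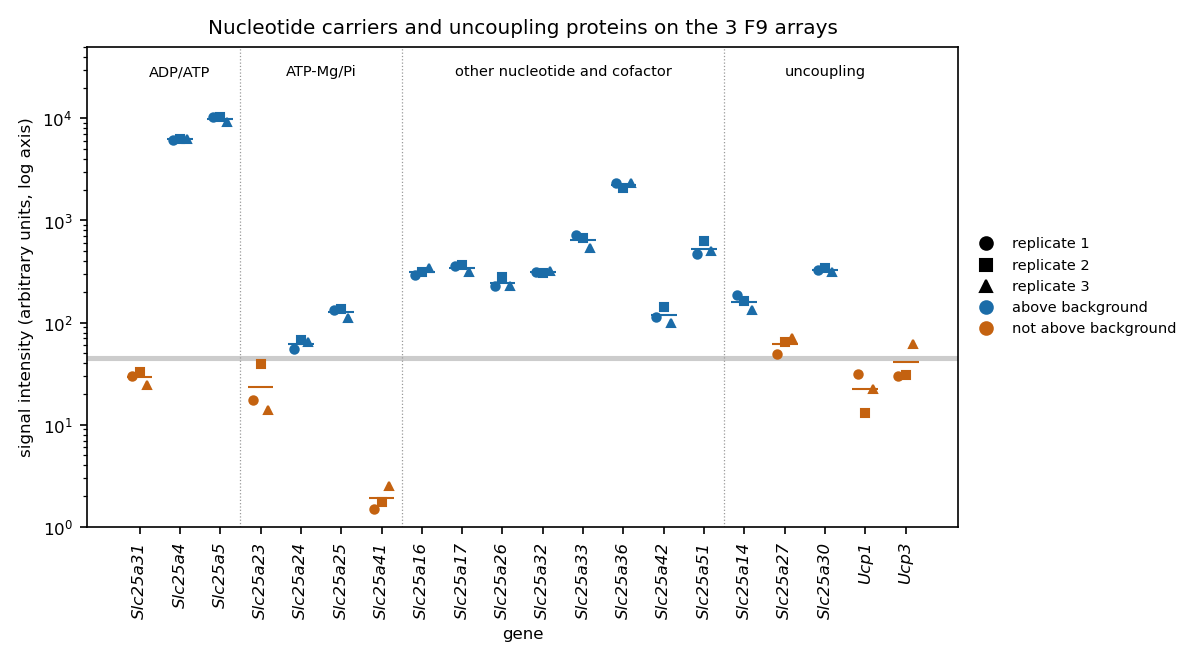
Signal on each of the 3 arrays (points, log axis, arbitrary units) for the nucleotide and cofactor carrier and uncoupling protein genes. Bars give the mean, blue where limma's test called the gene above background and orange where it did not. The grey band spans the 3 thresholds, 43.2 to 46.1. Slc25a4 and Slc25a5 lie at 6111 to 10351, Slc25a31 at 24.3 to 33.2, and the other nucleotide and cofactor carriers all above the band.

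Slc25a5 was covered by 8 probe sets, all of them above background, with mean signals from 1285 to 9940. Of these, 6 carry the suffix _x_at, which marks probes that may also bind other transcripts, 1 is an _a_at probe set and 1 a plain _at probe set, and near-identical paralogues and pseudogenes make the share of signal due to Slc25a5 itself uncertain. The plain _at probe set gave 1193, 1292 and 1370, or 4.85 log2 units over the threshold. Slc25a4 had 3 of 4 probe sets above background, an _x_at one at a mean signal of 6220 and _a_at ones at 6032 and 4535. The array values given above for Slc25a4 are those of the _x_at probe set, so its share of that signal is also uncertain. The fourth, a plain _at probe set, gave 16.2, 16.9 and 26.4 and lay at -1.21 log2 units. The call of Slc25a4 therefore held on 3 of its 4 probe sets and not on the plain _at one. It was called under 10 of the 11 alternatives and not where the probe set was chosen by suffix.

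The probe sets of Slc25a5 differed in which array was low. In all 4 probe sets above a signal of 8000, replicate 3 was the lowest array, by -0.15 to -0.04 log2 units against the mean of the other two, and in all 4 below it replicate 3 was the highest, by 0.13 to 0.22. The probe sets of 1 gene thus disagreed on whether replicate 3 was low or high. Over all 322 probe sets of the array above 8000, replicate 3 was lowest in 54.0%, with a median of -0.042 log2 units, and over the 3014 between 1000 and 4000 in 37.5%, with a median of 0.0066. Between 4000 and 8000 the share over the array was 42.6%, and between 200 and 1000 it was 38.0%. Among the member probe sets, replicate 3 was lowest in 5 of 5 above 8000, of which 4 are those of Slc25a5. It was lowest in 5 of 10 between 4000 and 8000 and in 3 of 14 between 1000 and 4000. Between 200 and 1000 it was lowest in 11 of 25. Of the 14, 4 are the remaining probe sets of Slc25a5, so the member counts partly repeat its pattern. The pattern of replicate 3 was chosen after the values were seen, and its source was not tested.

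**Figure D2:**
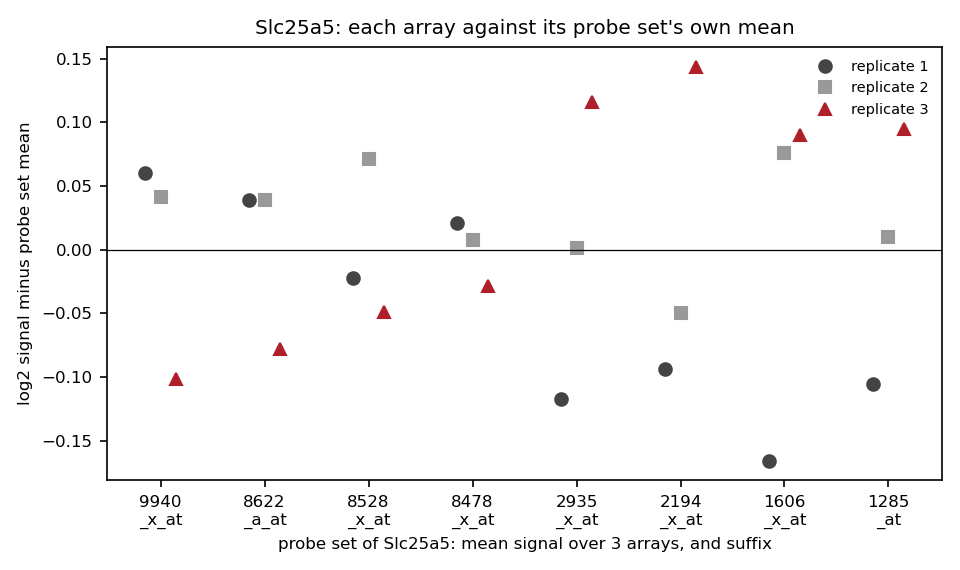
Log2 signal of each array minus the mean of its probe set, for the 8 probe sets of Slc25a5 in order of mean signal (x axis labels give mean signal and suffix; points are arrays). Replicate 3 lies lowest in the 4 probe sets above 8000 and highest in the 4 below.

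The ATP-Mg/phosphate carriers, calcium-regulated proteins that change the size of the matrix nucleotide pool, were divided, with 2 of 4 called. That is near the 51.1% of all named genes called. Slc25a25 gave 134, 137 and 110 (1.5 log2 units; limma adjusted p = 0.00133). Slc25a24 gave 55.2, 67.3 and 64.5, just above the threshold on each array at 0.48 log2 units (limma adjusted p = 0.0361), and it did not pass on any pair of arrays (limma adjusted p from 0.0881 to 0.151, or from 0.00976 to 0.914 over all 11 alternatives). The remaining members of the group were not above background: Slc25a23 gave 17.4, 39.2 and 13.8, and Slc25a41 gave 1.49, 1.74 and 2.49. Slc25a25 had 2 further probe sets and Slc25a24 had 1, all of them not above background.

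The other nucleotide and cofactor carriers were above background in 8 of 8 measured genes. Pyrimidine nucleotide carriers were represented by Slc25a36, at 2325, 2086 and 2336 on the 3 arrays (5.65 log2 units), and Slc25a33, at 729, 679 and 534 (3.85). All 3 probe sets of Slc25a36 passed, with mean signals of 2249, 1024 and 243, so that probe sets of 1 gene lay 3.21 log2 units apart. The mitochondrial NAD+ carrier Slc25a51 gave 467, 624 and 501, with replicate 2 the highest, and 2 of its 3 probe sets passed.

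The coenzyme A carrier genes Slc25a42 and Slc25a16 also passed. Slc25a42 gave 113, 142 and 100.1 (1.39 log2 units; limma adjusted p = 0.00257), and its second probe set was not above background. Slc25a16, which has been linked to coenzyme A transport, gave 289, 311 and 344. Slc25a32, which carries folates and FAD, varied little, at 314, 307 and 318, and 2 of its 3 probe sets passed. Slc25a26, the carrier of S-adenosylmethionine, gave 229, 277 and 226 and passed on both of its probe sets. Slc25a17, a carrier of the peroxisome and not of mitochondria, gave 359, 363 and 316, and 1 of its 2 probe sets passed.

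Of the uncoupling proteins and their relatives, Slc25a30 and Slc25a14 were above background and Ucp1, Ucp3 and Slc25a27 were not. Slc25a30 gave 328, 340 and 311 (2.87 log2 units) and passed on 3 of 5 probe sets, and Slc25a14 gave 184, 163 and 132 (1.83 log2 units). Ucp1 gave 31.3, 13.1 and 22.4, below the threshold on every array. Ucp3, the form known from skeletal muscle, gave 30.3, 30.4 and 61.9, above the threshold on replicate 3 and below it on the other two, and its second probe set was also not above background. Slc25a27, known from neural tissue, exceeded the threshold on all 3 arrays at 49.3, 64.9 and 71.4 but did not pass (0.46 log2 units; limma adjusted p = 0.0867). It passed at the 90th percentile (limma adjusted p = 0.0344) and with signals under 16 raised to 16 (limma adjusted p = 0.0454), and not under the 9 other alternatives (up to 1). Its other 3 probe sets were not above background. Of markers of the cells in which Ucp1 and Ucp3 are known, 1 of 9 brown adipocyte markers passed limma's test and 0 of 8 striated muscle markers, with 1 of the latter at an unadjusted p under 0.05. The brown adipocyte marker that passed, named after its value was seen, was Cox7a1 at 252 ± 7.64 (SD, n = 3), a subunit of the respiratory chain also known from muscle. In bulk RNA, a low signal from every cell and a signal from few of the cells cannot be told apart.

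The phosphate carrier Slc25a3, which supplies the phosphate that ATP synthase joins to ADP, gave 11130, 10536 and 9821 on the 3 arrays (7.88 log2 units). Its second probe set, at a mean signal of 78.9, passed narrowly with a limma adjusted p of 0.0431, 7.10 log2 units below the first. The outer membrane channels were likewise far above background in 3 of 3 genes. Vdac1 gave 8142, 8359 and 7148, Vdac2 gave 6830, 6384 and 6435, and Vdac3 gave 4250, 4096 and 4532. Of the 5 probe sets of Vdac1, 4 passed and were each lowest on replicate 3, and an _x_at probe set at a mean of 27.3 did not pass. Mpc1, a subunit of the mitochondrial pyruvate carrier, gave 1536, 1482 and 2010, with replicate 3 the highest.

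The outer membrane homologues Mtch2, known for inserting proteins into that membrane, and Mtch1 both passed. Mtch2 gave 3554, 3422 and 3686 (6.32 log2 units) on its best probe set, and only 3 of its 7 probe sets passed. The 4 that did not pass had mean signals of 8.76 to 32.1. Mtch1, with a single _s_at probe set, a kind that can bind transcripts of more than 1 gene, gave 954, 1173 and 966.

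**Figure D3:**
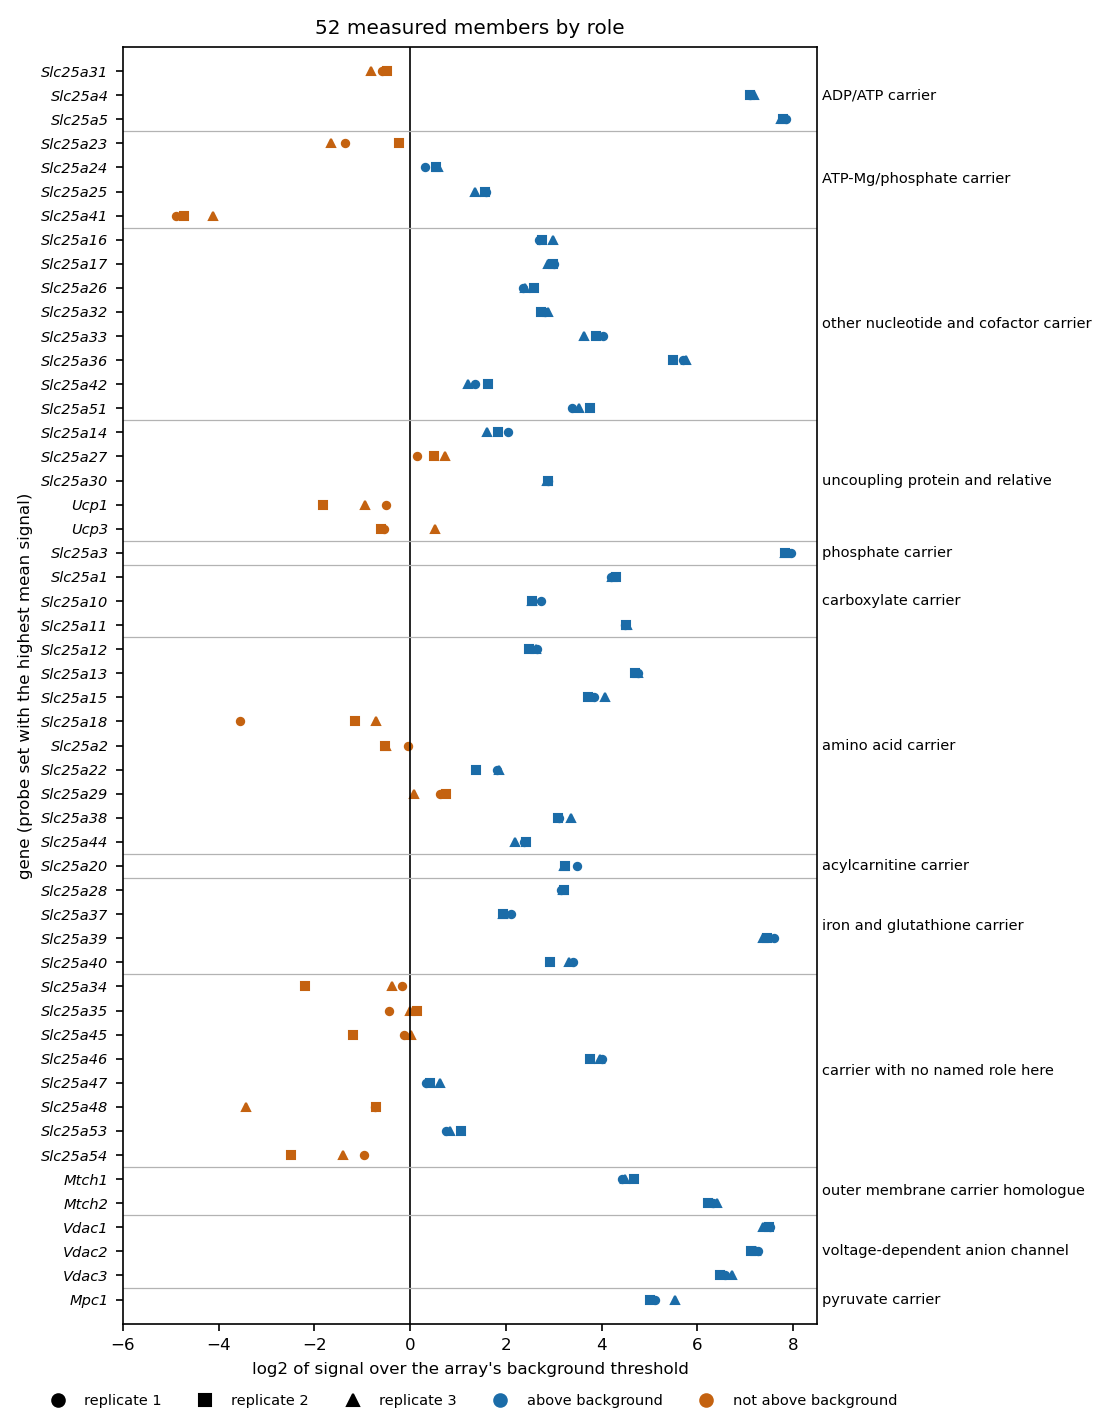
Log2 of signal over the array's threshold on each array (points) for the 52 measured members, grouped by role, blue where called above background by limma and orange where not; the vertical line marks the threshold. All members were called in 8 of the 13 role groups, some of which hold a single measured gene, and 51.1% of all named genes were called. Points of members not called scatter more between arrays, which is partly set by the call itself.

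Carboxylate carriers, which move citrate, malate and oxoglutarate, were above background in 3 of 3 measured genes. Mean signals were 846 ± 56.1 for the citrate carrier Slc25a1, 1012 ± 26.2 for the oxoglutarate carrier Slc25a11 and 273 ± 22.7 for the dicarboxylate carrier Slc25a10 (SD, n = 3). The acylcarnitine carrier Slc25a20, which brings fatty acids in for oxidation, had a signal of 445 ± 50.2 and passed on both probe sets.

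Amino acid carriers were divided, with 6 of 9 called, where 51.1% of all named genes were. The aspartate/glutamate carriers of the malate-aspartate shuttle both passed: Slc25a13 at 1190.2 ± 19.2 and Slc25a12 at 280, 256 and 266 on the 3 arrays, the latter on 1 of 3 probe sets. Slc25a15, the ornithine carrier of the urea cycle, had a signal of 656 ± 61.4, whereas its relative Slc25a2 gave 43.1, 31.9 and 30.5 and was not above background. The glutamate carriers were split in the same way, Slc25a22 passing at 144 ± 21.4 and Slc25a18 remaining at 3.79, 20.8 and 26.2. Slc25a38, the glycine carrier needed for haem synthesis, had a signal of 406 ± 33.0. Slc25a44, a carrier of branched-chain amino acids, gave 232, 248 and 198 and passed on 2 of 3 probe sets. Slc25a29, a carrier of basic amino acids, exceeded the threshold on all 3 arrays at 68.6, 77.7 and 45.8 but did not pass (limma adjusted p = 0.0999). It passed without replicate 3 (limma adjusted p = 0.0498) and at the 90th percentile (0.0188), with a range of 0.0188 to 0.869 over its alternatives. None of its 5 probe sets passed the main test, and the others had mean signals of 24.6 to 58.7.

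Iron and glutathione carriers were above background in 4 of 4 genes. The iron carriers Slc25a28 and Slc25a37 had signals of 406 ± 19.0 and 178 ± 12.5 (SD, n = 3). Slc25a37 is known best from red cell precursors, of whose markers 0 of 5 passed limma's test and 0 had an unadjusted p under 0.05. Slc25a39, a carrier of glutathione, gave 8634, 8038 and 7158 on its best probe set, an _x_at one, and passed on 4 of 5. Its single plain _at probe set gave 6.28, 6.50 and 7.43, below the threshold on every array, and the 4 probe sets called lay up to 3.01 log2 units apart. Its relative Slc25a40 had a signal of 417 ± 64.1.

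The carriers left without a named role here had 3 of 8 above background, where 51.1% of all named genes were. Slc25a46, an outer membrane protein known for its part in mitochondrial shape, had a signal of 670 ± 47.5 (SD, n = 3) and 2 probe sets that differed by 0.063 log2 units, the closest of any member. Slc25a53 gave 74.5, 96.6 and 76.6 (limma adjusted p = 0.00762), with a second probe set not above background, and did not pass at the 99th percentile (limma adjusted p = 0.145; from 0.000580 over its alternatives). Slc25a47, known from liver, gave 55.9, 61.6 and 66.7 on a single _s_at probe set (limma adjusted p = 0.0417). It did not pass on any pair of arrays (limma adjusted p from 0.114 to 0.140), at the 99th percentile or with an intensity trend, with a range of 0.0120 to 0.983 over its alternatives. Of 6 hepatocyte markers 0 passed limma's test and 0 had an unadjusted p under 0.05. Slc25a34, Slc25a35, Slc25a45, Slc25a48 and Slc25a54 had mean signals of 15.7 to 42.3 and were not above background.

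Of the 26 members with several probe sets, 14 (53.8%) had at least 1 probe set called and at least 1 not called, where 39.9% of such genes did over the whole array; 8 had all probe sets called and 4 had none. The distance between the highest and the lowest probe set of a gene, taken over called probe sets only, ran from 0.063 log2 units in Slc25a46 to 7.10 in Slc25a3. The SD between arrays had a median of 0.12 on the log2 scale for the members called (0.12 for all named genes called). For the 14 members not called it was 0.60. The test favours genes with a small spread, so this difference is partly set by the call itself.

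**Figure D4:**
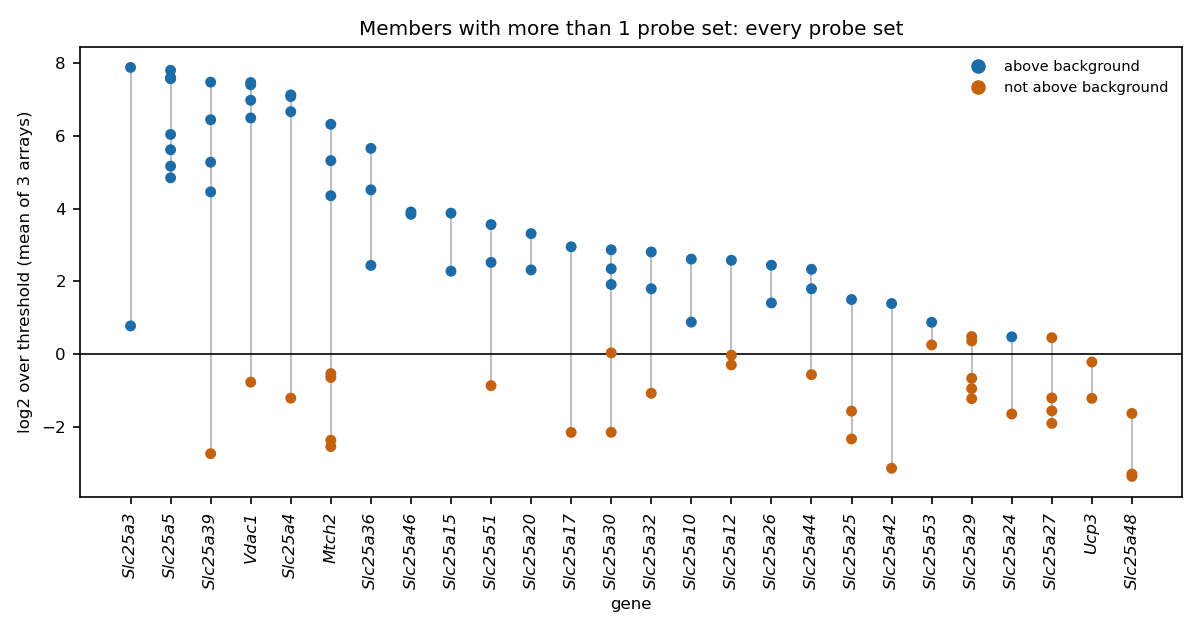
Mean log2 over threshold of every probe set (points) for the 26 members with more than 1, in order of their highest mean signal, blue where above background and orange where not; grey lines join probe sets of 1 gene. Slc25a39, Mtch2, Slc25a4 and Vdac1 have probe sets both far above the threshold and below it, while all 8 of Slc25a5 lie above it.

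Lists of genes that act beside the carriers were counted by the same test, which 51.1% of all named genes passed. The list for mitochondrial protein import passed in 16 of 16 measured genes. It includes the machinery that threads carrier proteins through the outer membrane and inserts them into the inner one. Among the genes were the receptors Tomm70a (2591 ± 141), Tomm20 (9384 ± 457) and Tomm22 (2623 ± 117) and the pore Tomm40 (2925 ± 170). Of the genes listed for adenine nucleotide handling or as acting beside the carriers, 10 of 11 passed. Those that passed included cyclophilin D (Ppif, 826 ± 29.5) and the adenylate kinase Ak3 (984 ± 45.5). Also passing were the hexokinases Hk1 (564 ± 85.5) and Hk2 (1704 ± 28.0), which can dock on VDAC. The exception was Ckmt2, the mitochondrial creatine kinase of striated muscle, at 1.47, 2.53 and 16.

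The calcium uniporter list passed in 6 of 7 genes. The channel gene Mcu had a signal of 300.0 ± 25.1 and its regulator Micu2 one of 142 ± 31.9, and Smdt1, a small subunit of the channel complex, one of 2380 ± 186 (SD, n = 3). By contrast, Micu3 (54.8, 77.1 and 102.8) did not pass (limma adjusted p = 0.0587) and passed at the 90th percentile, with signals under 16 raised to 16 and with an intensity trend (from 0.00664 to 0.422 over its alternatives). Of 12 genes of mitochondrial pyruvate use, which act on what the pyruvate carrier brings in, 11 passed, including Pdha1 (5264 ± 159), Pdhb (5879 ± 263), Dlat (925 ± 48.5) and Dld (1192 ± 131) of the pyruvate dehydrogenase complex. Pdp1, a phosphatase of that complex, did not (limma adjusted p = 0.0653, and from 0.0295 to 0.681 over its alternatives, of which 3 passed). In the macrophage list 2 of 5 passed, where 51.1% of all named genes did, and 0 of 5 at the 99th percentile. Those that passed were Cd68 (79.5 ± 5.38) and Csf1r (86.1 ± 7.27), both named after their values were seen. Csf1r passed on 1 of its 3 probe sets. Adgre1, Lyz2 and Ptprc did not pass, at -0.32, -0.64 and -2.37 log2 units.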

How the data were processed

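Total RNA from F9 cells was measured on Affymetrix Mouse Genome 430 2.0 arrays, 1 group of 3 samples. The authors deposited linear intensities for each of 45101 probe sets, made with GCOS 1.4 per the submitters' processing notes. How probe brightness was summarised, and any detection calls, were not given in the sources used. Each array's mean, with 2% of probe sets trimmed from both ends, was 250.002, so the deposited intensities were already scaled, which masks a change in RNA content per cell; they were used as deposited. The number of arrays limits the precision.

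Symbols were read from the GEO annotation of the platform: 34945 probe sets had 1 symbol, 932 several and 9160 none, and 64 were controls. Gene identifiers matched 34741 of the first to the RefSeq table (GRCm38.p6), with 0 symbols altered. Of those with several symbols, 1 included a member and was left out.

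The test was an intercept fit with lmFit and eBayes (limma 3.58.1, R 4.3.3) on log2 signal over the array's threshold, one-sided, adjusted by Benjamini-Hochberg over all probe sets at 0.05; it was checked on simulated arrays. Alternatives were the 90th and 99th percentiles, olfactory receptors alone, the probe set chosen by suffix (_at, then _a_at, _s_at, _x_at), no _s_at or _x_at probe sets, quantile normalization, signals under 16 raised to 16, an intensity trend, and each replicate left out.

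Members, roles and lists were chosen with earlier results of these data known. Every member was named within its role. Of each list of related genes, the first 4 measured and up to 3 whose call differed from most were named.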

Additional observations from a re-analysis of the deposited data

How the results depend on the processing

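The number of member genes above background was 38 and ran from 35 (99th percentile) to 40 (90th percentile) over the 11 alternatives, and from 36 to 37 with 1 replicate left out. Nucleotide and cofactor carriers ran from 11 to 12, uncoupling proteins and relatives from 2 to 3 and other members from 22 to 25. These counts also stayed within 1.5 times their main values. Of the 52 genes, 43 kept their sign and call under every alternative that measured them. Chosen by suffix, the probe sets of Slc25a4 and Slc25a39 lay at -1.21 and -2.73 log2 units and that of the macrophage marker Csf1r at -0.26. At the 90th percentile Slc25a35 lay at 0.22 and Ucp3 at 0.11, neither called, and with 1 replicate left out Slc25a35 ran from -0.22 to 0.071. Slc25a24, Slc25a47 and Slc25a53 lost their calls at the 99th percentile. Without the _s_at and _x_at probe sets, Mtch1 and Slc25a47 had no probe set left. No paired analysis was possible because the series has 1 group.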
